A study of Mus musculus with 9 samples.

Results

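Collagens, the proteins that assemble or degrade matrix around them, and marker genes of the hepatic stellate cell were followed in mouse liver tumours and control livers. The genes were all collagen alpha chains that carry a symbol of the form Col, number, a, number in the array's annotation, and 21 further genes fixed by name, each on a probe set of 1 gene symbol (the brightest where a gene had several). This gave 64 of 19938 measured genes, of which 44 were collagen chains and 20 were other genes. Loxl2 lay only on a probe set shared by several symbols and is not reported. Expression was read with Affymetrix Mouse Gene 1.0 ST arrays from total RNA, with 1 array for each sample. The 5 tumour samples (HCC 1 to 5) were hepatocellular carcinomas of bitransgenic AFP-Cre/Rosa26-lsl-NICD mice. In these, the alpha-fetoprotein (AFP) promoter drives Cre, which removes the stop in front of NICD, the constitutively active intracellular part of Notch1. The 4 control samples (control 1 to 4) were healthy livers of monotransgenic Rosa26-lsl-NICD mice, which carry the same silent allele without Cre. All mice were on a hybrid 129 x C57BL/6 background and 6 to 12 months old, per the labels, and the labels do not give sex or say which arrays came from separate animals, so p-values cover only array-to-array spread. The design asks how tumours with constitutive Notch signalling differ from control liver.

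In healthy liver the stellate cell lies between hepatocytes and the sinusoid, stores retinyl esters through the enzyme Lrat, and deposits a sparse matrix. When it is activated by injury it loses its retinoid stores, takes up a contractile state marked by smooth muscle actin (Acta2), responds to PDGF and TGF-beta, and secretes fibrillar collagens types I and III. Collagen chains wind into triple helices, lysyl oxidases cross-link them, and metalloproteinases (Mmp) and their tissue inhibitors (Timp) set how fast they are removed.

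Values are RMA intensities on the log2 scale, so a difference of 1 is a doubling, and errors are SD with n = 5 HCC and n = 4 control arrays. The median linear intensity of the 9 arrays lay between 91.5 and 101. Alb, the hepatocyte's main secreted protein, measured 13.30 ± 0.23 in HCC and 13.55 ± 0.08 in control liver, so a hepatocyte signal was present in both tissues. Xist was 11.14 and 11.13 on HCC 1 and 2 and 4.92 to 5.10 on HCC 3, 4 and 5, against 10.68 to 11.76 on control 1, 2 and 3 and 4.83 on control 4, so arrays with and without an Xist signal are present in both groups. In bulk tissue, fewer cells of a type and less RNA per cell cannot be told apart.

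Sparc was higher in HCC and was the only 1 of the 64 genes to pass an adjusted p of 0.05 in limma. Across all genes 0.858% were called higher and 0.16% lower, and here 1 of 64 was called higher and 0 lower. At an unadjusted p below 0.05, 16 of the 64 were higher and 2 lower, beside 10.5% and 9.85% of all genes. The median log2 change was -0.04 over the 64 genes and -0.03 over all genes. The collagens and the other genes are described apart. Of the 44 collagens 41 lay within 0.25 of no change and none changed by 1 or more, whereas 7 of the 20 other genes lay within 0.25 and 4 changed by 1 or more (Sparc, Timp1, Acta2 and Lrat). Among all genes 71.5% lay within 0.25. The 2 sets differed in level: the highest control mean of a collagen was 8.73 (Col14a1), whereas the other genes ran from 4.91 (Lox) to 12.28 (Fn1). The median level of all genes was 6.83. The part of signal level in this contrast was not tested.

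**Figure D1:**
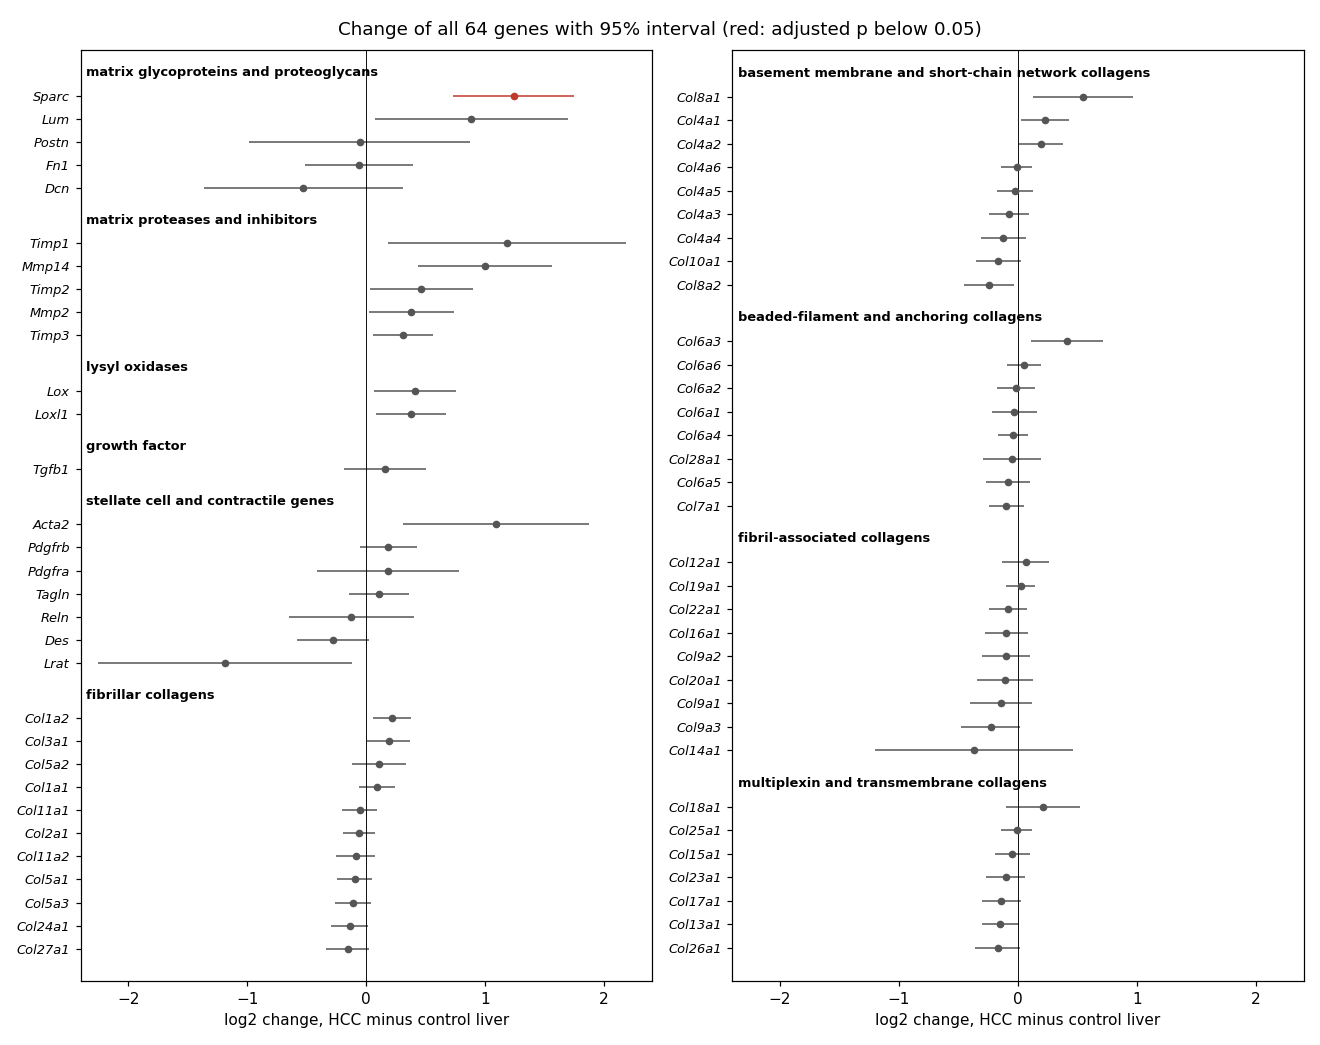
Log2 change (HCC minus control liver, horizontal axis) of each of the 64 genes with its 95% interval, grouped by role. Sparc, in red, is the gene with an adjusted p below 0.05, and 41 of the 44 collagens lie within 0.25 of 0.

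Sparc encodes osteonectin, a secreted collagen-binding glycoprotein. It measured 12.19, 12.28, 11.79, 11.91 and 11.30 on HCC 1 to 5, against 10.32, 10.98, 10.95 and 10.37 on control 1 to 4. Every HCC array lay above every control array, with HCC 5 nearest to the controls. The group means were 11.89 ± 0.39 in HCC and 10.66 ± 0.36 in control liver, a 2.36-fold difference (log2 change 1.24, SE 0.23, 95% interval 0.73 to 1.75, adjusted p = 0.0468 in limma). The call ended when most single arrays were left out. The adjusted p was between 0.0756 and 0.144 when any array other than HCC 5 was left out, and 0.00936 without HCC 5, with a log2 change of 1.13 to 1.39 over the 9 omissions.

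The other matrix glycoproteins and proteoglycans did not pass. Lum, the keratan sulfate proteoglycan lumican that spaces collagen fibrils, measured 7.34, 8.97, 6.98, 7.66 and 8.01 on HCC 1 to 5, against 6.78, 7.34, 6.62 and 6.89 on the control arrays (log2 change 0.88, SE 0.36, adjusted p = 0.215). HCC 2 was the highest tumour, HCC 1 and 3 lay inside the control range, and without HCC 2 the change was 0.59. Dcn, the related proteoglycan decorin, was 9.64, 11.52, 10.83, 11.10 and 11.72 in HCC, against 11.40, 11.48, 11.74 and 11.34 in control liver (log2 change -0.53, 95% interval -1.36 to 0.31, adjusted p = 0.443). HCC 1, 3 and 4 lay below all controls, and without HCC 1 the change was -0.20. Fn1, fibronectin, which hepatocytes also secrete into plasma, averaged 12.22 ± 0.37 in HCC and 12.28 ± 0.28 in control liver, with a 95% interval of the difference of -0.51 to 0.39. Postn, the fibroblast protein periostin, averaged 7.87 ± 0.44 in HCC and 7.92 ± 0.94 in control liver, and its controls alone ran from 6.94 to 8.94.

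All 5 genes of matrix proteolysis had a positive change with an unadjusted p below 0.05, beside 10.5% of all genes, and none passed after adjustment over all genes. Mmp14, a membrane-anchored collagenase that also activates Mmp2, measured 9.20, 9.64, 8.89, 8.66 and 8.36 on HCC 1 to 5, against 7.51, 8.14, 8.14 and 8.00 on control 1 to 4. The groups did not overlap (log2 change 1.00, SE 0.25, adjusted p = 0.0914), and without HCC 5, the lowest tumour, the adjusted p was 0.0296. Timp1, a secreted inhibitor of metalloproteinases induced in stellate cell activation, was 8.21, 7.60, 6.30, 6.12 and 6.00 in HCC, against 5.70, 5.60, 5.74 and 5.59 in control liver. All tumours again lay above all controls, but HCC 1 and 2 stood more than 1 unit above the other tumours, and the SD was 1.00 in HCC and 0.08 in control liver (log2 change 1.19, SE 0.44, adjusted p = 0.188).

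The remaining inhibitors and the gelatinase Mmp2 differed by less. Timp2, an inhibitor that also takes part in Mmp2 activation, measured 8.48, 8.54, 8.10, 8.08 and 8.68 in HCC, against 7.74, 8.33, 8.09 and 7.49 in control liver (log2 change 0.46, adjusted p = 0.222). Timp3, the inhibitor bound to matrix, had a log2 change of 0.31 (95% interval 0.06 to 0.56, adjusted p = 0.175). Mmp2 had one of 0.38 (0.02 to 0.74, adjusted p = 0.227). In these 3 genes the groups overlapped.

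Of the lysyl oxidases, Lox, which starts the cross-linking of collagen and elastin, measured 5.63, 5.27, 5.62, 5.21 and 4.86 on HCC 1 to 5, against 4.84, 5.01, 4.88 and 4.89 in control liver. HCC 1 to 4 lay above all controls and HCC 5 among them (log2 change 0.41, SE 0.15, adjusted p = 0.189). Without HCC 5 the change was 0.52 and the adjusted p 0.0394. Loxl1, a relative with a role in elastic fibres, was 6.36, 6.68, 6.36, 6.89 and 6.46 in HCC, against 6.37, 6.08, 6.01 and 6.24 in control liver (log2 change 0.38, adjusted p = 0.162), and only control 1 reached into the tumour range. Tgfb1, the growth factor that drives collagen transcription in stellate cells, was 7.03, 7.61, 7.00, 7.36 and 6.79 in HCC, against 6.95, 7.03, 7.00 and 7.00 in control liver. HCC 2 and 4 lay above the narrow control range, HCC 5 below it and HCC 1 and 3 inside it (log2 change 0.16, 95% interval -0.19 to 0.50, adjusted p = 0.583). The change was 0.046 without HCC 2 and 0.25 without HCC 5.

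In 5 genes all tumours lay above all controls (Sparc, Mmp14, Timp1, Col1a2 and Col6a3), beside 5.63% of all genes, and in 1 gene, Col13a1, all tumours lay below, beside 3.86% of all genes. The 250 bases upstream of the annotated start of the 5 genes are shown because these are the genes that separated the groups on every array. The sequences are RefSeq's (GRCm38.p6), written 5′ to 3′ on the gene's strand, with capitals marking any match to the motifs searched below.
Sparc (chr11:55420081-55420330, strand -): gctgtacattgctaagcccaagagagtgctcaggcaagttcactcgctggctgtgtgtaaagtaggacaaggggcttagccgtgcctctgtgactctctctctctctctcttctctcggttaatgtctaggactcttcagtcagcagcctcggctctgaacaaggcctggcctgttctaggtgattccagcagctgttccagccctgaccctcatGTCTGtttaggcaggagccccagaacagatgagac
Mmp14 (chr14:54431348-54431597, strand +): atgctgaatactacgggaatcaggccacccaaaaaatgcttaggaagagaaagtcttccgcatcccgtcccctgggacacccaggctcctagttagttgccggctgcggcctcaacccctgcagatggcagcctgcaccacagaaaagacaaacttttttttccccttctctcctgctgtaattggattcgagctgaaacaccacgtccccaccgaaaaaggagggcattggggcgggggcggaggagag
Timp1 (chrX:20869916-20870165, strand +): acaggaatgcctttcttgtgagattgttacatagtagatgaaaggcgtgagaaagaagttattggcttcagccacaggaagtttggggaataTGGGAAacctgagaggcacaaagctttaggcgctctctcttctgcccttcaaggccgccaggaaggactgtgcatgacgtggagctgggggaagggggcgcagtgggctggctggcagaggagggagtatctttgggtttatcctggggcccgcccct
Col1a2 (chr6:4505368-4505617, strand +): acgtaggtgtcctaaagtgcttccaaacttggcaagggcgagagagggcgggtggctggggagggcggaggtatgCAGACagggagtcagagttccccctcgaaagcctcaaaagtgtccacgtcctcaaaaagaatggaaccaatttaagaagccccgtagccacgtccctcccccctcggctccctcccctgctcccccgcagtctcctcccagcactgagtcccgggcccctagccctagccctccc
Col6a3 (chr1:90843972-90844221, strand -): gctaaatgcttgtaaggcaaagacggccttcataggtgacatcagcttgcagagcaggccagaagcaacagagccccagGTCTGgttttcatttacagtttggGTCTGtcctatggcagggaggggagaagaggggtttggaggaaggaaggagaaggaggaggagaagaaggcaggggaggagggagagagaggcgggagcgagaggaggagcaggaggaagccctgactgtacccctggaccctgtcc
Motifs were searched on both strands: the core bound by Rbpj, the DNA-binding partner of NICD (TGGGAA or TTCCCA), the SMAD element of TGF-beta signalling (CAGAC or GTCTG), the AP-1 site (TGANTCA), the TATA box (TATAAA or TTTATA) and the CArG box of serum response factor. No match overlapped another in these 5 windows. The Rbpj core was present in the Timp1 window and in none of the other 4. The SMAD letters occurred in Sparc and Col1a2 (1 match each) and in Col6a3 (2 matches). Mmp14 held none of the 5 motifs. Among 32851 start sites of all genes the Rbpj core was present in 21.6%, the SMAD letters in 42.2%, the AP-1 site in 6.75%, the TATA box in 12.4% and the CArG box in 1.47%. Start sites were found for 47 of the 64 genes, 51 in all, of which 14 held the Rbpj core (27.5%), 21 the SMAD letters (41.2%), 6 the TATA box (11.8%), 1 the AP-1 site and 1 the CArG box (1.96% each). A match is a description of letters and not a bound site.

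**Figure D2:**
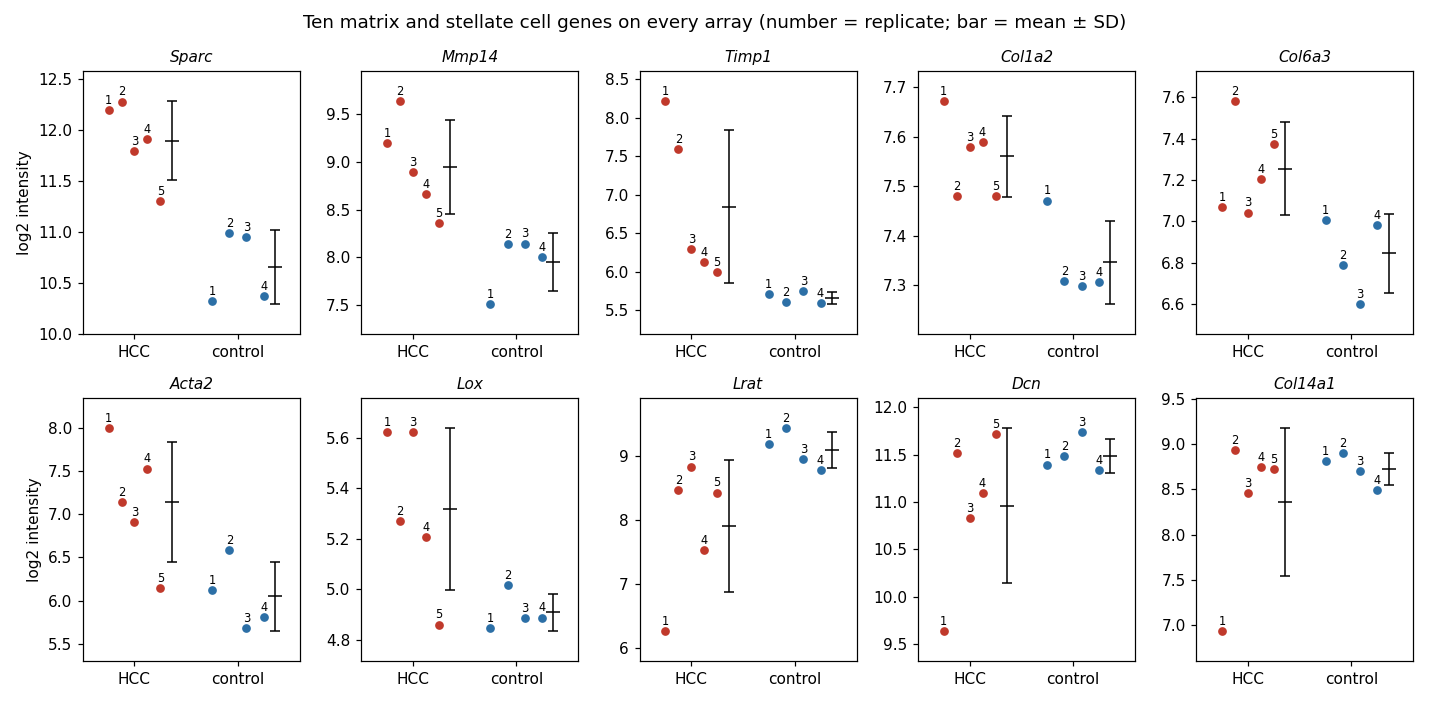
Log2 intensity of 10 genes on each array, HCC (red) left of control liver (blue), numbered by replicate, with group mean ± SD as bars. Sparc, Mmp14, Timp1, Col1a2 and Col6a3 have no overlap between the groups, whereas Acta2 and Lox overlap through HCC 5, and HCC 1 is lowest for Lrat, Dcn and Col14a1.

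Of the 7 stellate cell and contractile genes 4 had a positive and 3 a negative change, and none passed. Acta2 measured 7.99, 7.14, 6.91, 7.53 and 6.15 on HCC 1 to 5, against 6.12, 6.58, 5.68 and 5.81 on control 1 to 4. HCC 1 to 4 lay above all controls and HCC 5 inside their range (log2 change 1.09, SE 0.35, 95% interval 0.31 to 1.87, adjusted p = 0.139). Without HCC 5 the change was 1.34 and the adjusted p 0.0304. Lrat, which esterifies retinol for storage and marks the quiescent stellate cell, was 6.26, 8.47, 8.84, 7.53 and 8.43 in HCC, against 9.19, 9.44, 8.96 and 8.79 in control liver. HCC 1 and 4 were lowest, and HCC 3 alone lay above the lowest control (log2 change -1.19, SE 0.47, 95% interval -2.25 to -0.12, adjusted p = 0.21). Without HCC 1 the change was -0.77. The 2 tumours with the lowest Lrat, HCC 1 and 4, were also those with the highest Acta2.

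Tagln, a contractile-cell protein often found together with Acta2, averaged 7.14 ± 0.20 in HCC and 7.04 ± 0.12 in control liver (95% interval of the difference -0.15 to 0.36). Smooth muscle markers had a median change of -0.10 over 10 genes with none called. Their summed linear intensity was 3413 to 5473 in HCC and 4067 to 4205 in control liver. The brightest of them was Cald1, at 11.24 to 12.14 in HCC and 11.55 to 11.63 in control liver. The part of smooth muscle in the Acta2 values was not tested. Des, the intermediate filament desmin of stellate and muscle cells, measured 5.70, 6.28, 6.06, 5.94 and 6.36 in HCC, against 6.44, 6.42, 6.25 and 6.27 in control liver (log2 change -0.28, adjusted p = 0.274). The PDGF receptors Pdgfrb (log2 change 0.19, 95% interval -0.06 to 0.43) and Pdgfra (0.18, -0.41 to 0.78) and the glycoprotein Reln (-0.13, -0.65 to 0.40) did not pass either. Pdgfra was 6.33 on HCC 1 and 7.20 to 7.82 on the other tumours, against 6.88 to 7.14 in control liver, so HCC 1 lay below and the other 4 above every control.

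The fibrillar collagens differed little between tumours and control livers, and none of the 11 passed. Type I collagen is a heterotrimer of Col1a1 and Col1a2 and is the main collagen of scar. Col1a1 measured 7.52, 7.38, 7.38, 7.48 and 7.38 in HCC, against 7.39, 7.32, 7.23 and 7.41 in control liver (log2 change 0.09, 95% interval -0.06 to 0.24, adjusted p = 0.472). Col1a2 was 7.67, 7.48, 7.58, 7.59 and 7.48 in HCC, against 7.47, 7.31, 7.30 and 7.31 in control liver (log2 change 0.21, 95% interval 0.05 to 0.37, adjusted p = 0.151). The groups of Col1a2 were separated only by the distance between HCC 2 and 5 and control 1. Col3a1, the chain of type III collagen, was 7.06 to 7.24 in HCC and 6.78 to 7.08 in control liver (log2 change 0.19, 95% interval 0.01 to 0.37, adjusted p = 0.23). The upper bounds of these 3 intervals, at most 0.37, correspond to changes well under a doubling of the array signal. The median level of all genes was 6.83, and Col3a1 held the same value, 7.06, on HCC 2, 4 and 5. Whether signals at this level understate a change in transcript was not tested. The largest negative change among fibrillar chains was of Col27a1 at -0.16 (adjusted p = 0.302), and the median of the 11 was -0.06.

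Of 9 basement membrane and short-chain network collagens 3 had a positive and 6 a negative change, and none passed. Col8a1, a short-chain collagen of vessels and remodelling tissue, measured 6.96, 6.31, 7.10, 7.15 and 6.46 on HCC 1 to 5, against 6.26, 6.16, 6.13 and 6.46 on the control arrays (log2 change 0.55, SE 0.19, adjusted p = 0.16). HCC 1, 3 and 4 were clearly above the controls, HCC 2 and 5 were not. Its partner chain Col8a2 had a negative change, with 6.22, 5.90, 6.17, 6.26 and 6.22 in HCC, against 6.51, 6.26, 6.34 and 6.47 in control liver (log2 change -0.24, adjusted p = 0.2). Col4a1 and Col4a2, which form the common type IV network of basement membranes, had log2 changes of 0.23 (95% interval 0.03 to 0.43, adjusted p = 0.201) and 0.19 (0.01 to 0.38, adjusted p = 0.227). Col4a1 measured 7.71, 7.57, 7.43, 7.39 and 7.35 in HCC, against 7.35, 7.27, 7.15 and 7.28 in control liver. The 4 restricted chains Col4a3 to Col4a6 lay between -0.12 and -0.01.

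Among beaded-filament and anchoring collagens, Col6a3, a chain of the type VI microfibril, measured 7.07, 7.58, 7.04, 7.21 and 7.37 in HCC, against 7.01, 6.79, 6.60 and 6.98 in control liver (log2 change 0.41, 95% interval 0.11 to 0.71, adjusted p = 0.147). Its partner chains Col6a1 and Col6a2 were at -0.03 and -0.02. The other chains of this group ran from -0.10 in Col7a1 to 0.05 in Col6a6. Col6a5 (-0.08) and Col6a6 had a second probe set each, with changes of the opposite sign at 0.07 and -0.11, and all 4 intervals included 0. The change of Col6a5 was -0.04 without HCC 4 and -0.03 without control 4.

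Of 9 fibril-associated collagens none had an unadjusted p below 0.05. Col14a1, which binds fibril surfaces and is expressed by stellate cells, was 6.94 on HCC 1 and 8.46 to 8.93 on HCC 2 to 5, against 8.49 to 8.90 in control liver. Its log2 change of -0.37 (SE 0.37, adjusted p = 0.598) was -0.01 without HCC 1. Col9a3 and Col9a1, chains of a cartilage collagen, had changes of -0.23 and -0.14 (adjusted p = 0.274 and 0.508), and that of Col9a1 was -0.06 without control 1 and -0.24 without control 2. Of 7 multiplexin and transmembrane collagens, Col18a1, the source of endostatin, which hepatocytes make, measured 8.71, 7.95, 8.17, 8.28 and 8.12 in HCC, against 8.06, 8.02, 7.94 and 8.11 in control liver (log2 change 0.21, adjusted p = 0.411). HCC 1 was highest, HCC 2 lay inside the control range, and without HCC 1 the change was 0.096. The transmembrane chain Col13a1 was 6.87, 6.94, 7.01, 7.09 and 7.09 in HCC, against 7.18, 7.16, 7.10 and 7.15 in control liver (log2 change -0.15, 95% interval -0.30 to 0.01, adjusted p = 0.26). Col26a1, counted in this group although it is neither a multiplexin nor a transmembrane collagen, was at -0.17 (adjusted p = 0.29).

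A limit of the collagen values is visible in the deposited numbers. In 19 of the 44 collagens (43.2%) the same value, equal to 5 decimals of log2, stood on 3 or more arrays, as did 25.8% of all genes and none of the 20 other genes described here. Col19a1 had 1 value on 6 of 9 arrays, and Col4a5, Col6a6 and Col7a1 had 1 value on 5. Control 1 was the highest of the 9 arrays in 20 of the 44 collagens (45.5%) and in 15.9% of all genes. The log2 change was negative in 32 of 44 collagens (median -0.07), and without control 1 in 29 (median -0.04), where Col9a3, Col27a1, Col26a1 and Col9a1 were at -0.18, -0.11, -0.11 and -0.06.

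**Figure D3:**
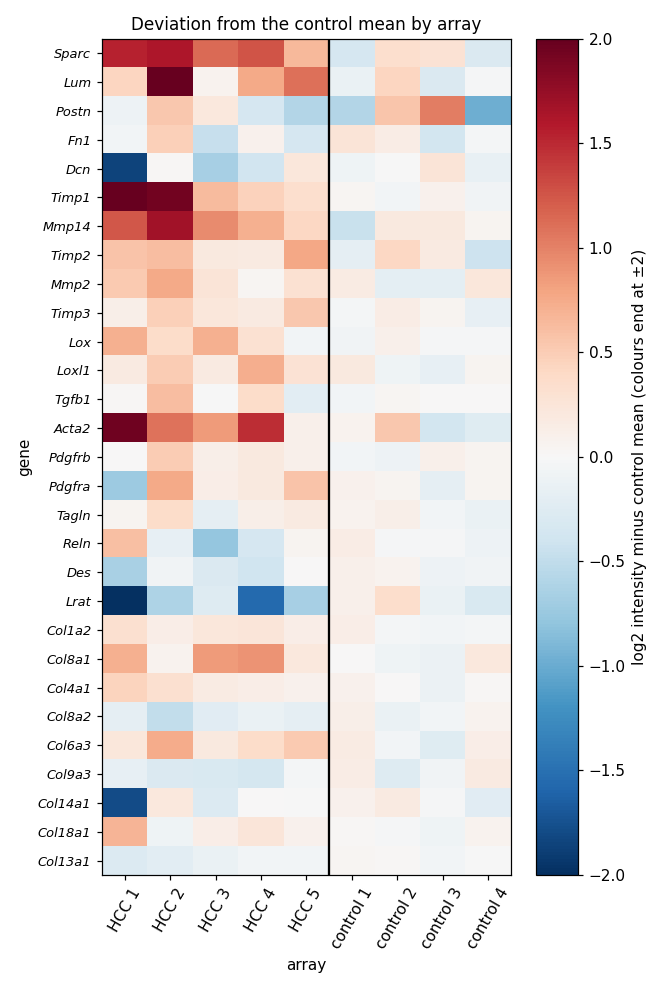
Log2 intensity minus the control mean (colour, ending at ±2) by array, HCC left of the line and control right, for the 20 genes other than collagens and for collagens with a change of at least 0.2 or no overlap. HCC 1 has the highest Acta2, Timp1 and Reln and the lowest Lrat, Dcn and Col14a1, and HCC 2 is highest for Lum and Mmp14.

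The tumours differed from each other more than the controls did in the genes other than collagens. The SD was larger in HCC than in control liver in 18 of these 20 genes, in 21 of 44 collagens and in 67.9% of all genes. HCC 2 was the highest of the 9 arrays in 9 of the 20, among them Sparc, Mmp14, Lum, Tgfb1 and Pdgfrb. It was highest in 2 of the 44 collagens (4.55%) and in 12.7% of all genes. HCC 2 also had the highest macrophage and leukocyte marker scores (mean log2 difference from the control mean 0.88 and 0.36), against -1.49 to -0.59 and -0.23 to 0.14 on the other tumours. The control arrays ran from -0.49 to 0.47 and from -0.06 to 0.11. Of the members of the macrophage score, Clec4f was 10.41 on HCC 2, 7.13 to 8.75 on the other tumours and 8.91 to 10.10 in control liver. Adgre1 was 9.56 on HCC 2, 7.28 to 7.63 on the other tumours and 7.66 to 9.02 in control liver. HCC 1 was highest in 4 of the 20 (Acta2, Timp1, Lox and Reln), beside 16% of all genes. It was lowest in another 4 (Lrat, Dcn, Pdgfra and Des), beside 15.1% of all genes. On HCC 1 the macrophage score was -1.49 and the endothelial score -0.67, the lowest of the 9 arrays, while the proliferation and biliary scores were the highest at 2.55 and 2.57. HCC 5 was highest in 2 of the 20 (Timp2 and Timp3), beside 5.81% of all genes, so it was not near the controls in every gene. HCC 5, the tumour nearest to the controls in Sparc, Mmp14, Timp1, Lox and Acta2, had a hepatocyte marker score of 0.06, against -0.87 to -0.45 on HCC 1 to 4. The part of these cell type markers in the matrix values was not tested.

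Matrix genes outside the 64 were counted by list in the same fit. Of 20 further elastic fibre and matrix proteins Mgp rose, 19 did not pass and none fell. Mgp, the matrix Gla protein that inhibits calcification, was 10.17, 9.54, 8.57, 9.91 and 9.80 on HCC 1 to 5, against 7.40, 7.55, 6.89 and 6.55 in control liver, with no overlap (5.64-fold, log2 change 2.50, adjusted p = 0.0194). It passed in 4 of the 9 fits that leave out 1 array, with an adjusted p of up to 0.0923 without HCC 4 or any control. Of 14 laminins, nidogens and basement membrane proteoglycans none passed. The lowest adjusted p there was that of agrin (Agrn), 7.21 ± 0.27 in HCC and 6.56 ± 0.15 in control liver (log2 change 0.65, adjusted p = 0.0655). Of 20 collagen synthesis enzymes and chaperones none passed. The lowest adjusted p was that of P4hb, protein disulfide isomerase and a subunit of prolyl hydroxylase. It was 11.40 ± 0.25 in HCC and 11.93 ± 0.12 in control liver (log2 change -0.53, adjusted p = 0.085). The list as a whole was not lower, with 11 positive and 9 negative changes and a median of 0.02. The largest positive changes were those of Plod2 (log2 change 1.39, adjusted p = 0.109) and Pcolce (1.05, adjusted p = 0.261).

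In the TGF-beta pathway 2 of 23 genes rose, none fell and 21 did not pass. Itgb8, the integrin chain that with Itgav releases latent TGF-beta, was 9.94, 8.08, 8.26, 7.93 and 8.12 in HCC, against 6.43, 6.49, 6.30 and 6.60 in control liver (4.03-fold, log2 change 2.01, adjusted p = 0.0489). Tgfbr2, the ligand-binding receptor, was 8.17, 8.29, 8.35, 7.93 and 8.28 in HCC, against 7.72, 7.52, 7.68 and 7.79 in control liver (log2 change 0.53, adjusted p = 0.0497). For both genes every HCC array lay above every control array, but each call held in only 2 of the 9 fits that leave out 1 array (adjusted p up to 0.145 for Itgb8 and 0.142 for Tgfbr2). It was lost as well in 2 of 9 other alternatives for Itgb8 and in 5 of 9 for Tgfbr2. At an unadjusted p below 0.05, 12 of the 23 were higher and 1 lower, beside 10.5% and 9.85% of all genes, and the list median was 0.23, beside -0.03 over all genes. The 12 included Tgif1, Skil and Smad7. The list was not divided into genes that promote and genes that restrain signalling, so the count does not give a direction of pathway activity. Of 11 PDGF ligands and collagen receptors none passed, with the lowest adjusted p in Pdgfc, a ligand of Pdgfra (8.79 ± 0.62 in HCC and 7.35 ± 0.35 in control liver, log2 change 1.43, adjusted p = 0.0645). Of 16 other metalloproteinases and Timp4 none passed, with the lowest in the macrophage elastase Mmp12 (8.21 ± 0.85 and 6.52 ± 0.42 in HCC and control liver, log2 change 1.69, adjusted p = 0.0846). At an unadjusted p below 0.05, 2 of the 16 were higher and 2 lower, and the median was 0.01. Mmp19 had the largest negative change (log2 change -0.92, adjusted p = 0.123).

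Of 21 other stellate cell and fibroblast markers none passed, with 5 higher and 5 lower at an unadjusted p below 0.05, beside 10.5% and 9.85% of all genes, and a median of 0.06. The 5 higher were Entpd2, Pdpn, Vim, S100a4 and S100a6, with log2 changes of 0.59 to 1.42. The 5 lower were Ecm1, Vipr1, Hand2, Lhx2 and Gfap, with log2 changes of -1.48 to -0.22. The summed linear intensity of this list was 4720 to 8376 in HCC and 4314 to 5512 in control liver. Such a sum is weighted to the brightest genes. By group mean these were Rgs5 in HCC (9.20 to 11.02, against 8.99 to 9.52 in control liver) and Ecm1 in control liver. Ecm1, a secreted inhibitor of latent TGF-beta activation in mouse liver, was 7.59, 8.64, 8.12, 7.87 and 9.15 in HCC, against 9.54, 9.97, 10.17 and 9.35 in control liver (log2 change -1.48, adjusted p = 0.0624), with no overlap. Macrophage, endothelial and leukocyte markers had no member past the threshold and medians of -0.45, -0.13 and -0.06 over 11, 14 and 8 genes. Biliary and proliferation markers had 3 of 10 and 2 of 9 members called higher, with medians of 1.13 and 1.63, beside 0.858% of all genes called higher. Of 12 hepatocyte markers 1 was called lower, beside 0.16% of all genes, with a median of -0.27. Most of these calls depended on the arrays in the fit: of the 9 fits that leave out 1 array, Bicc1 passed in 9, Mcm6 in 8, Sox9 in 5, Cd24a in 3, Top2a in 2 and the hepatocyte gene Pck1 in 1. Cd24a was also lost with the replicate block (adjusted p = 0.0588) and Pck1 with the Xist covariate (adjusted p = 0.0598).

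**Figure D4:**
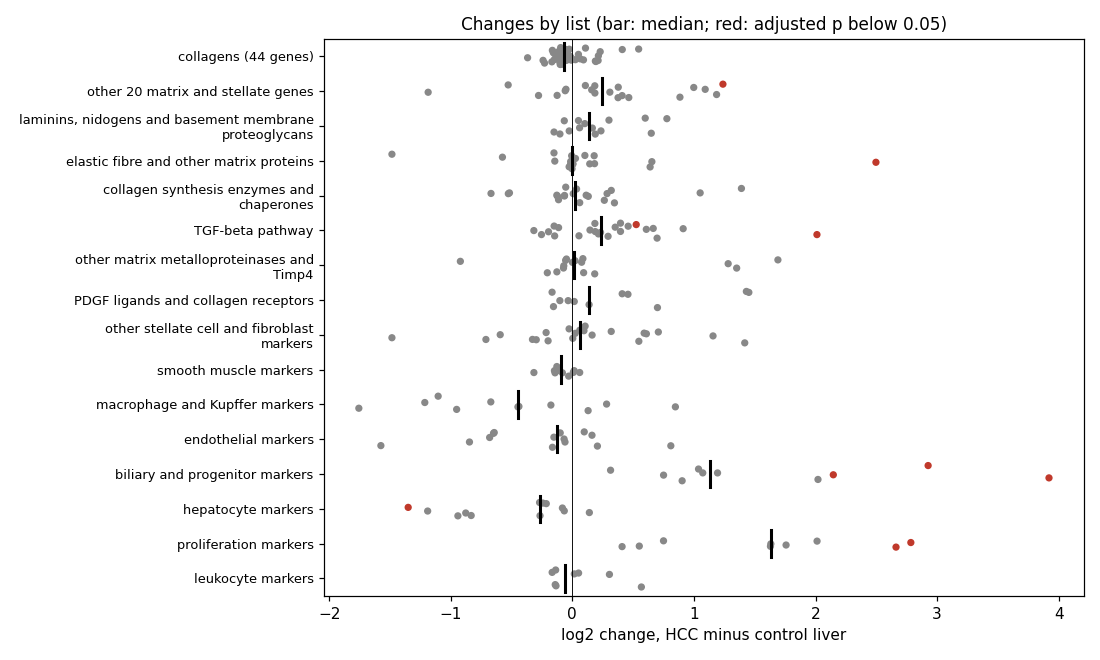
Log2 change (HCC minus control liver) of each gene by list, with list medians as black bars and genes past an adjusted p of 0.05 in red. The 44 collagens cluster at a median of -0.07, the other 20 matrix and stellate genes spread around 0.25, and the biliary and proliferation lists lie further right at 1.13 and 1.63.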

How the data were processed

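Probe set intensities on a linear scale were summarised with RMA by the authors, per the submitters' processing notes, and analysed in GenePattern and R, per the labels of the series. Versions and annotation build are not named by these sources. The deposited intensities (35512 probe sets, 9 arrays) were transformed to log2 with no floor or filter. Scanner files and detection calls were not used, so the background correction could not be repeated and a low intensity does not show that a transcript was absent. Names came from the platform annotation, which gave 1 symbol to 21789 probe sets, several to 1621 and none to 12102, and 19938 genes remained with the brightest probe set kept per gene. HCC and control arrays were compared with limma 3.58.1 in R 4.3.3 (lmFit, eBayes, two-sided, group as the only term), with Benjamini-Hochberg adjustment over all 19938 genes; the fit was tested on simulated data. Intervals are 95% intervals of that fit. No 2 arrays held identical values. The number of arrays limits the precision. Values on every array are given for genes past the threshold, genes whose groups do not overlap and up to 3 per role group with the largest change; some others were added after their values were seen. The genes, role groups and lists were chosen with earlier results of these data known. Python 3.11.15, pandas 2.3.3 and matplotlib 3.10.9 were used for tables and plots.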

Additional observations from a re-analysis of the deposited data

Results flagged for a closer look

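Dixon's criterion was applied to each of the 64 genes in each group, 128 tests in all. Chance alone passes about 1 in 20 where values are normal and not tied, which does not hold for many of the collagens. The criterion singled out 15 (11.7%), almost all in collagens, which are 44 of the 64 genes. The value given is the gap to the nearest array over the range of the group. HCC 1 was low in Col14a1 (0.763; 6.94, next 8.46), the largest of these gaps in log2 units. HCC 2 was low in Col8a2 (0.755), Col7a1 (0.923) and Col11a1 (0.752). HCC 4 was low in Col6a5 (0.923) and high in Col19a1 (0.908). HCC 5 was low in Col4a5 (1.000; 6.52 against 6.55 on the other 4) and high in Col6a6 (0.942). Control 1 was high in Col16a1 (0.854), Col1a2 (0.940; 7.47, next 7.31), Col2a1 (1.000) and Col11a2 (1.000). Control 2 was low in Col19a1 (1.000). Control 3 was high in Col11a1 (0.845) and low in Pdgfra (0.885; 6.88, next 7.11). Where the ratio is 1.000 the remaining arrays of the group hold the same value, so a small step fills the whole range. Col6a5, Col6a6, Col7a1 and Col19a1 held 1 value on 3 HCC arrays, so ties can also raise their ratios.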

How the results depend on the processing

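The number of the 64 genes called higher was 1 (Sparc) under each of the 9 alternatives that leave out no array, and 0 to 4 when 1 array was left out: 4 without HCC 5 (Sparc, Acta2, Mmp14 and Lox) and 0 without any other array. The number called lower was 0 under all 18 settings. Without an array of either group fewer samples enter the fit, and the counts over all genes also varied, as between 10 higher and 0 lower without control 3 and 631 higher and 556 lower without HCC 5. The median log2 change of the 64 genes was -0.064 after subtracting array medians and -0.018 with the Xist level as a covariate, against -0.043 as reported, and -0.042 to -0.015 when 1 array was left out; the cause was not tested. For the 27 genes given by rule, none of the 234 values under the 9 alternatives and none of the 243 with 1 array left out changed sign; among the 243, 8 lost a call (all Sparc) and 3 gained one. Same-numbered arrays of the groups did not deviate together for numbers 1, 3 and 4 (correlations of deviations -0.08 to -0.004). For number 2 the correlation was 0.32. The numbers were not taken as pairs. With the replicate number as a block, a fit in which HCC 5 has no partner and drops out of the comparison, Sparc stayed called (log2 change 1.39, adjusted p = 0.0368), 1 gene was higher and 0 lower, and the median was -0.027; over all genes 259 were higher and 220 lower, against 171 and 32. The filter on dim genes kept 39 of the 64. Over all genes, array weights gave 503 higher and 246 lower, the filter 285 and 93, and repeated quantile normalisation 151 and 49.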
